A study of Capra hircus with 6 samples.

Results

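Puberty begins when the hypothalamus raises its release of gonadotropin-releasing hormone (GnRH), and a small set of genes is known to act upstream of that rise as brakes or accelerators. The genes described here are 10 such timing regulators, LIN28A, LIN28B, MKRN3, DLK1, GATAD1, IRF2BPL, NKX2-1, POU2F1, YY1 and SIRT1. They were chosen by name from knowledge of mammalian puberty, with earlier results of these data known. The expression of each was taken as the sum of all its transcripts in each library. Of the 20225 genes in the mRNA table these are 10, of which 9 had a row and 8 were above 0. RNA was sequenced from the hypothalamus of 3 pubertal female Anhuai goats of 4.5 to 5 months, in the late follicular phase, with puberty judged by estrus detection with males and by the vulva, and of 3 prepubertal females of 2.5 to 3 months, with 1 library per goat. All goats were kept under shared conditions on the same farm with no treatment named, and stage, age and ovarian phase cannot be told apart. The authors gave the values in FPKM, fragments scaled by transcript length and by the number of mapped fragments. Values of single goats are given in the order of replicates 1, 2 and 3.

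Several of these genes are brakes. LIN28A and LIN28B are RNA-binding proteins that block the maturation of let-7 microRNAs. MKRN3, a makorin with RING and zinc finger domains, and DLK1, a membrane protein related to the Notch ligands, are imprinted genes whose loss leads to early puberty in humans. GATAD1, YY1 and SIRT1 act on chromatin. GATAD1 is a zinc finger protein that can bring the histone demethylase KDM1A to promoters, YY1 is a zinc finger factor that activates or represses, and SIRT1 is an NAD-dependent deacetylase that works with the Polycomb protein EED on the kisspeptin gene. IRF2BPL (also called EAP1), NKX2-1 (TTF1) and POU2F1 (Oct-1) are transcription factors or regulators that act on the GnRH gene.

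No difference between the stages was detected in any of the 8 measured regulators. In limma on log2(FPKM + 1), 0 of 8 passed an adjusted p-value threshold of 0.05 and 0 of 8 the same threshold unadjusted. Of the 16397 genes tested, 0% passed the adjusted threshold and 5.16% the unadjusted one, 3.51% higher and 1.65% lower in pubertal goats. Of the 8 differences 3 were above 0 and 5 below, with a median of -0.02 against 0.00 over all genes tested. The median size of the difference, without its sign, was 0.07 for the regulators and 0.09 for all genes. The stages overlapped in all 8, where 9.75% of all genes tested did not overlap, 5.91% higher and 3.84% lower in pubertal goats. As folds of FPKM + 1, a scale that understates changes of weakly expressed genes, the 95% intervals of the 8 genes lay between 0.599 and 1.43. An exact permutation test of 3 goats against 3 cannot give a p-value under 0.1, and the lowest among the regulators was 0.2, for GATAD1. In RNA from whole tissue, fewer cells of a type and less RNA per cell cannot be told apart.

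**Figure D1:**
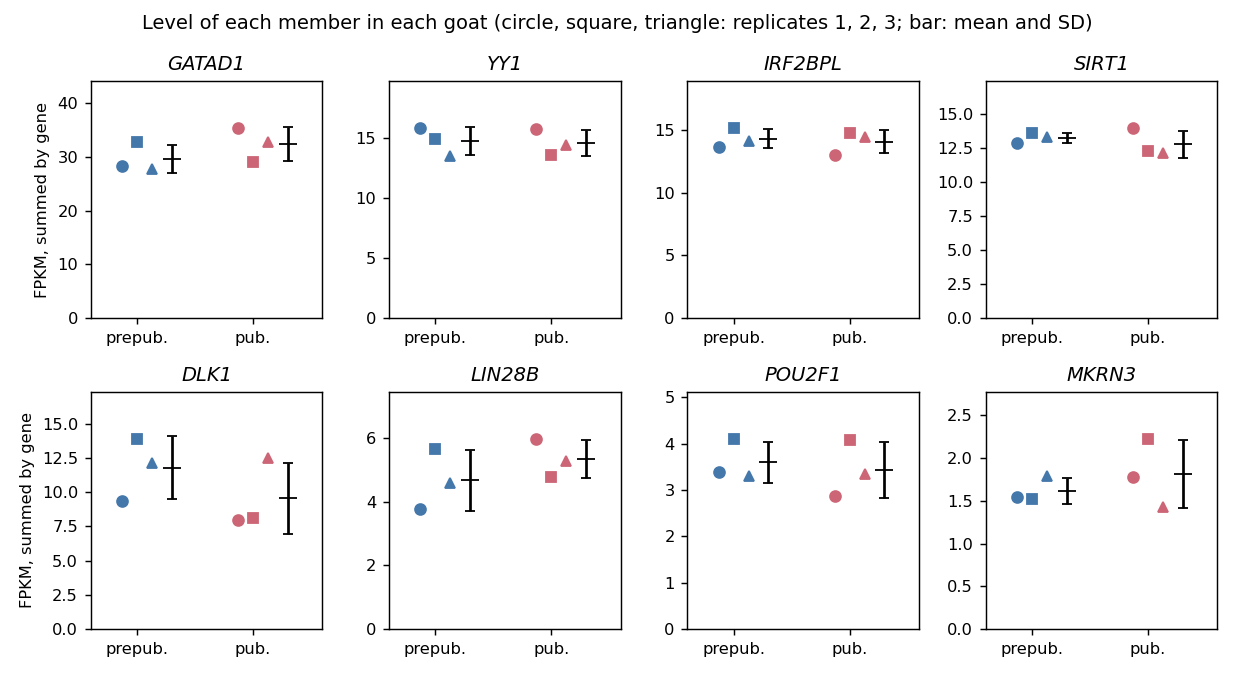
FPKM summed by gene (vertical axes, each from 0) of the 8 measured regulators in the 3 prepubertal goats (blue) and the 3 pubertal goats (red), with symbols for replicates 1, 2 and 3 and a black bar for the mean and SD. The stages overlap in every panel, and DLK1, from 7.98 to 13.9 FPKM, has the highest coefficient of variation, 23.4%.

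Their levels spanned more than an order of magnitude. FPKM is scaled by the length of the annotated transcript, which ran from 811 nt for LIN28B to 5812 nt for the longest of YY1. Whether the annotated transcripts are complete was not tested, and levels of different genes depend on it. The mean over the 6 libraries was 30.98 FPKM for GATAD1, 14.6 for YY1, 14.2 for IRF2BPL, 13.0 for SIRT1, 10.7 for DLK1, 4.998 for LIN28B, 3.52 for POU2F1 and 1.71 for MKRN3. GATAD1 was above YY1 by 2.11-fold, DLK1 above LIN28B by 2.11-fold, LIN28B above POU2F1 by 1.42-fold and POU2F1 above MKRN3 by 2.06-fold, each in 6 of 6 libraries (exact sign-flip permutation, two-sided, p = 0.03125, which is the least possible with 6 goats, and 0.0547 adjusted over the 7 neighbouring pairs). None of the 7 pairs passed an adjusted threshold of 0.05, and the order was taken from the means of these same libraries. Among the 4 genes in the middle, YY1, IRF2BPL, SIRT1 and DLK1, neighbours did not keep the same order in all libraries. YY1 was above IRF2BPL in 2 of 6 libraries, IRF2BPL above SIRT1 in 5 and SIRT1 above DLK1 in 4.

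The libraries were close in scale, with a median log2(FPKM + 1) between 3.80 and 3.83 over genes with a mean of at least 1 FPKM. The study reports its read totals, but the values used here hold no counts, so depth was not compared between libraries. The hypothalamus label was checked against peptide genes. PMCH, of lateral hypothalamic neurons, was between 673 and 2173 FPKM, and GHRH between 15.8 and 30.5 FPKM. The feeding peptide genes AGRP and POMC varied widely, AGRP with 22.7, 5.69 and 28.3 FPKM in the pubertal against 97.5, 176 and 22.3 FPKM in the prepubertal goats, and POMC, also a pituitary gene, with 34.4, 85.1 and 429 against 47.4, 22.9 and 24.3 FPKM. AVP was listed at 0 in all libraries, and OXT, TRH and HCRT had no row. A value of 0 is not absence here, because 7 genes were listed at 0 in some library and at 100 FPKM or more in another. Pubertal replicate 3 stood apart from the other libraries in TTR, a choroid plexus gene (309 FPKM against at most 53.4), and it alone had GH1, a pituitary hormone gene, above 0 (7.79 FPKM).

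LIN28B (XM_005684616.1, 811 nt) was the more informative of the LIN28 genes. It measured 5.96, 4.77 and 5.26 FPKM in the pubertal against 3.75, 5.66 and 4.58 FPKM in the prepubertal goats. Prepubertal replicates 1 and 3 were below every pubertal goat, but prepubertal replicate 2 was above pubertal replicates 2 and 3. The means were 5.33 ± 0.600 and 4.66 ± 0.957 FPKM (SD, n = 3 each), a log2 difference of 0.17 (standard error 0.15, 95% interval -0.18 to 0.52, adjusted p = 0.962 from limma). Without prepubertal replicate 1 the difference was 0.05, and without prepubertal replicate 2 it was 0.29. The row for LIN28A (XM_005677000.1, 594 nt) was listed at 0 in all 6 libraries. In the ARS1.2 assembly of RefSeq, which was used for names only, 2 genes carry the symbol LIN28A. The gene in the mRNA table is the shorter locus, 630 nt from end to end and hardly longer than its transcript. The other locus, of 13464 nt, had no row. The expression of LIN28A is therefore not settled by these values.

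The let-7 pathway list held 15 genes, of which 9 were tested. IGF2BP3, an RNA-binding protein and let-7 target, measured 1.23, 1.09 and 1.35 FPKM in the pubertal against 2.08, 1.62 and 2.45 FPKM in the prepubertal goats, so all pubertal goats lay below all prepubertal goats (log2 difference -0.45, standard error 0.14, adjusted p = 0.795 from limma, unadjusted p = 0.0106). MYC, a growth factor-responsive transcription factor, lay the other way, with 1.32, 1.29 and 2.05 FPKM against 1.12, 0.920 and 1.01 FPKM (log2 difference 0.33, adjusted p = 0.961, unadjusted p = 0.0476 in limma). Without pubertal replicate 3 the difference of MYC was 0.20, with an unadjusted p of 0.128 in limma. The unadjusted p of MYC was also above 0.05 without any single prepubertal goat, with the replicate block (0.0587), quantile normalization (0.0754), a minimum of 1 FPKM (0.0845), a pseudocount of 0.1 (0.0540) or the most abundant transcript (0.0553). Of the 9, 0 passed the adjusted threshold and 2 the unadjusted one, which 5.16% of all genes passed. HMGA2, a let-7 target of embryonic cells, was listed at 0 in all libraries. The 2 most abundant genes, DIS3L2, the exonuclease that degrades tailed let-7 precursors, and HMGA1, a chromatin protein, had log2 differences of -0.03 and -0.10. The median of the list was 0.03.

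MKRN3 (XM_005701259.2, 1455 nt), the lowest of the measured regulators, measured 1.78, 2.22 and 1.43 FPKM in the pubertal against 1.54, 1.52 and 1.79 FPKM in the prepubertal goats. Pubertal goats held both the highest and the lowest value. The means were 1.81 ± 0.399 and 1.62 ± 0.150 FPKM (SD, n = 3 each), a log2 difference of 0.09 (standard error 0.14, 95% interval -0.22 to 0.41, adjusted p = 0.969 from limma). Without pubertal replicate 2 the difference was -0.01, so its sign rested on that goat. On the plain FPKM scale the pubertal mean was 1.12 times the prepubertal mean. Its relative MKRN1, a ubiquitin ligase, was 16.6 times as abundant on average and higher in 6 of 6 libraries.

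DLK1 (XM_013973280.1, 877 nt) had the largest difference of the 8 regulators on the log2 scale and the highest coefficient of variation, while in FPKM the difference and the spread of the more abundant GATAD1 were larger. It measured 7.98, 8.15 and 12.5 FPKM in the pubertal against 9.35, 13.9 and 12.2 FPKM in the prepubertal goats. Pubertal replicates 1 and 2 were below every prepubertal goat, while pubertal replicate 3 lay among them. The means were 9.55 ± 2.57 and 11.8 ± 2.29 FPKM (SD, n = 3 each), a ratio of 0.810 and a log2 difference of -0.29 (standard error 0.20, 95% interval -0.74 to 0.16, adjusted p = 0.962 from limma). Without pubertal replicate 3 the log2 difference was -0.48, with an unadjusted p of 0.0228 and an adjusted p of 1 in limma. With any other single library left out it was between -0.43 and -0.17. DLK1 is also a gene of the anterior pituitary, and pubertal replicate 3 was the library with GH1 at 7.79 FPKM and POU1F1, a pituitary transcription factor, at 0.54 FPKM, against at most 0.08 FPKM elsewhere. Over the whole list of the anterior pituitary and pars tuberalis, of which 7 of 9 genes had a row and 5 of 7 were above 0 in log2 difference, the summed level was 53.2 to 66.6 FPKM in pubertal and 4.35 to 21.4 FPKM in prepubertal goats. Most of that sum was CGA, the shared alpha subunit of the glycoprotein hormones, at 50.1, 62.5 and 39.4 against 2.24, 18.0 and 3.32 FPKM. TSHB was at 2.46, 2.33 and 4.04 against 0.724, 1.84 and 0 FPKM (log2 difference 1.19, adjusted p = 0.795 from limma). LHB and TBX19 had log2 differences of -0.03 each. The part of pituitary RNA in the values of DLK1 was not tested. The coefficient of variation of DLK1 over the 6 libraries was 23.4%, above that of 91.9% of the 5534 genes with a mean within 2-fold of its own.

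**Figure D2:**
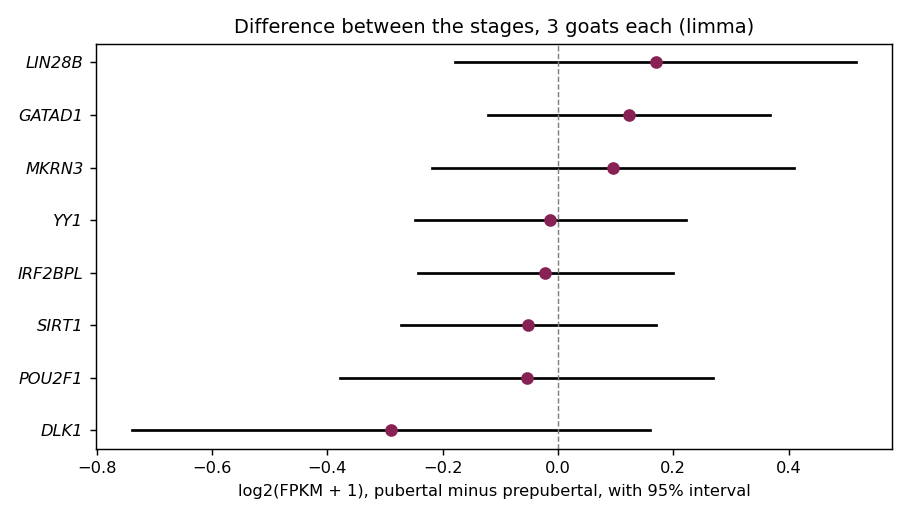
Difference in log2(FPKM + 1) between pubertal and prepubertal goats (horizontal axis, pubertal minus prepubertal) for the 8 measured regulators, as points with 95% intervals from limma. Every interval includes 0, the narrowest belong to IRF2BPL and SIRT1, and the widest to DLK1.

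MKRN3 and DLK1 were set beside genes that are imprinted near them in other mammals, together with MKRN1. In the gene order of ARS1.2, MAGEL2 and NDN are the nearest tested protein-coding genes after MKRN3. NDN, a growth-restraining MAGE protein of neurons, measured 95.7, 108 and 89.7 FPKM in the pubertal against 120, 120 and 112 FPKM in the prepubertal goats. MAGEL2, a related ubiquitin ligase cofactor, was at 8.99, 9.10 and 8.15 FPKM against 9.23, 10.8 and 9.99 FPKM. In both genes the pubertal goats lay below the prepubertal goats, with log2 differences of -0.26 for NDN (standard error 0.10, adjusted p = 0.883 and unadjusted p = 0.0240 from limma) and -0.17 for MAGEL2 (standard error 0.10, adjusted p = 0.962). The stages overlapped in MKRN3 itself, and the difference between MKRN3 and its neighbours was not tested. SNRPN, a spliceosome protein gene at 427 ± 57.8 and 460 ± 37.1 FPKM (SD, n = 3 each), and UBE3A, a ubiquitin ligase gene at 61.4 ± 9.69 and 64.7 ± 3.08 FPKM (SD, n = 3 each), had overlapping stages.

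DIO3, the deiodinase that inactivates thyroid hormone and lies in the imprinted domain of DLK1 in other mammals, measured 0.504, 0.821 and 0.643 FPKM in the pubertal against 0.984, 1.37 and 1.14 FPKM in the prepubertal goats. All pubertal goats were lower, with a log2 difference of -0.39 (standard error 0.13, adjusted p = 0.825 and unadjusted p = 0.0156 from limma). With a pseudocount of 0.1, which compresses low values less, the difference was -0.75. RTL1, a retrotransposon-derived gene of the same domain, measured 4.54, 4.36 and 5.66 FPKM in the pubertal against 4.39, 4.69 and 4.93 FPKM in the prepubertal goats, with a log2 difference of 0.04. Of the 7 genes of this list that were tested, 0 passed the adjusted threshold. The unadjusted threshold was passed by 2, both lower, against 5.16% of all genes in either direction and 1.65% lower. Stages did not overlap in 4, all lower, against 9.75% of all genes in either direction and 3.84% lower. These were NDN, MAGEL2, DIO3 and MKRN1, the last listed as a relative of MKRN3 and not as an imprinted neighbour. MKRN1 measured 25.3, 28.27 and 25.5 FPKM in the pubertal against 32.1, 29.5 and 28.32 FPKM in the prepubertal goats. The unadjusted p of NDN was above 0.05 with quantile normalization (0.0545) and without pubertal replicate 3 (0.0847), prepubertal replicate 1 (0.0776) or prepubertal replicate 2 (0.0732), and that of DIO3 without prepubertal replicate 2 (0.0587), all in limma. The median log2 difference of the list was -0.17. Neuron markers lay the same way, with 5 of 5 tested below 0 and a median of -0.17, and their summed level was 988 to 1214 FPKM in pubertal and 1128 to 1241 FPKM in prepubertal goats. The part of neuron content in these genes was not tested.

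**Figure D3:**
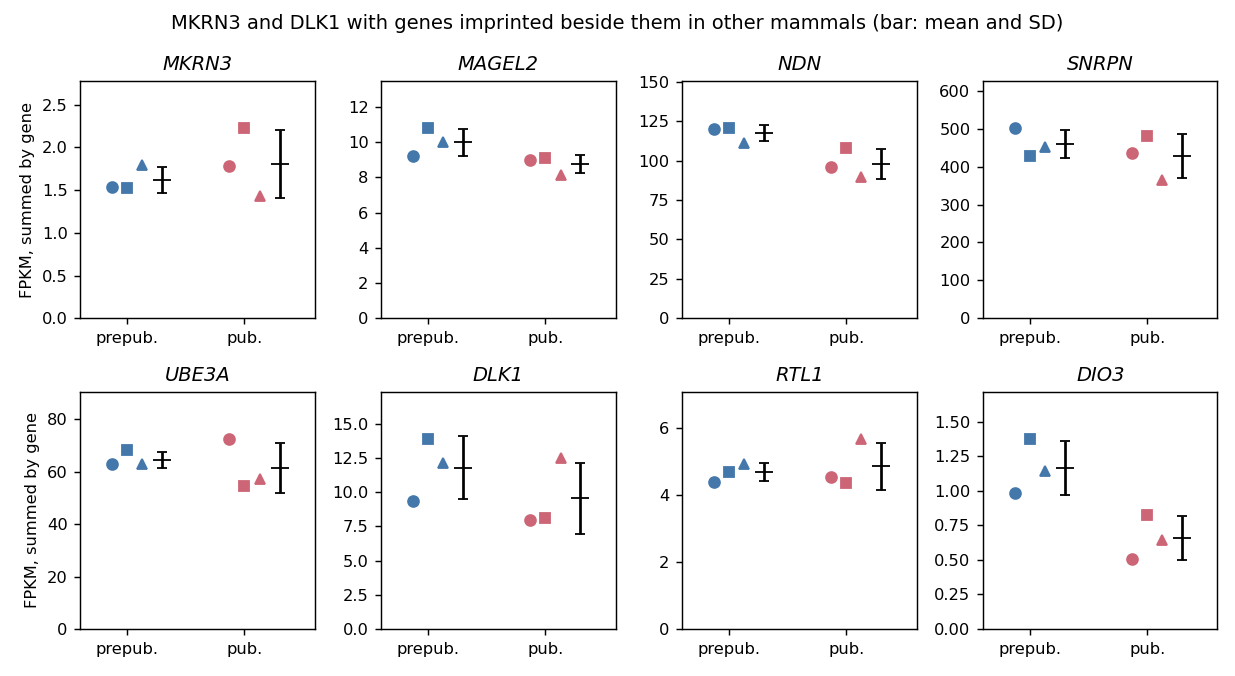
FPKM summed by gene (vertical axes, each from 0) of MKRN3, MAGEL2, NDN, SNRPN and UBE3A and of DLK1, RTL1 and DIO3 in prepubertal (blue) and pubertal (red) goats, with the mean and SD as a black bar. The stages do not overlap for MAGEL2, NDN and DIO3, and they overlap for MKRN3 and DLK1.

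In the Notch pathway, to which DLK1 is related, 12 of the 14 genes tested had a difference above 0, against 49.8% of all genes, and the median was 0.08. None passed the adjusted threshold. NOTCH3, a receptor of mural cells, measured 5.73, 7.21 and 6.34 FPKM in the pubertal against 3.98, 5.07 and 4.61 FPKM in the prepubertal goats, so the stages did not overlap (log2 difference 0.42, standard error 0.13, adjusted p = 0.808 and unadjusted p = 0.0116 from limma). Endothelial and mural markers lay the same way, with 6 of 6 tested above 0 and summed levels of 114 to 215 FPKM in pubertal and 86.2 to 108 FPKM in prepubertal goats. The 215 FPKM belonged to pubertal replicate 3, with ACTA2, a smooth muscle actin, at 70.7 FPKM against at most 18.0 elsewhere, and the other pubertal goats had 128 and 114 FPKM. Without that library the log2 difference of NOTCH3 was 0.42, and without prepubertal replicate 1 it was 0.34 with an unadjusted p of 0.0518 in limma. The part of these cells in the value of NOTCH3 was not tested. RBPJ, the transcription factor of the pathway, and NUMB, its inhibitor, were the most abundant genes of the list and had log2 differences of 0.14 and 0.00. DLK2, the closest relative of DLK1, had 6.06 and 5.69 FPKM in the means of the stages, and DLK1 was above it in 6 of 6 libraries, by 1.80 times on average.

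GATAD1 (XM_013963125.1, 920 nt), the most abundant of the regulators, measured 35.3, 29.0 and 32.7 FPKM in the pubertal against 28.3, 32.7 and 27.8 FPKM in the prepubertal goats. Prepubertal replicate 2 was as high as pubertal replicate 3, and the other prepubertal goats were below all pubertal goats. The means were 32.3 ± 3.14 and 29.6 ± 2.68 FPKM (SD, n = 3 each), a log2 difference of 0.12 (standard error 0.11, 95% interval -0.12 to 0.37, adjusted p = 0.962 from limma). The difference kept its sign with each library left out in turn, between 0.06 and 0.20. KDM1A, the demethylase that GATAD1 can recruit, measured 38.6, 37.9 and 34.1 FPKM in the pubertal against 40.3, 40.0 and 38.5 FPKM in the prepubertal goats, with a log2 difference of -0.10 (adjusted p = 0.962 from limma).

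YY1 was the only regulator with several transcripts in the table. Summed over them it measured 15.7, 13.6 and 14.4 FPKM in the pubertal against 15.8, 14.9 and 13.5 FPKM in the prepubertal goats, and the stages overlapped fully. The means were 14.6 ± 1.08 and 14.7 ± 1.15 FPKM (SD, n = 3 each), with a log2 difference of -0.01 (standard error 0.10, 95% interval -0.25 to 0.22, adjusted p = 0.997 from limma). Beneath this sum the transcripts were less even. XM_005695406.2 (5758 nt) measured 3.19, 3.02 and 4.80 FPKM in the pubertal against 2.43, 2.56 and 2.77 FPKM in the prepubertal goats. All pubertal goats were above all prepubertal goats, as in 5.52% of all transcripts tested, with a log2 difference of 0.36 (standard error 0.18, 95% interval -0.07 to 0.80, adjusted p = 0.972 from limma over 23821 transcripts). Without pubertal replicate 3 the difference was 0.20.

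The main transcript of YY1, XM_005695407.2 (5646 nt), measured 11.7, 8.92 and 7.67 FPKM in the pubertal against 11.3, 10.2 and 9.40 FPKM in the prepubertal goats. The rarest, XM_013973254.1 (5812 nt), was at 0.855, 1.66 and 1.92 FPKM against 2.07, 2.099 and 1.32 FPKM. Both overlapped between the stages, with log2 differences of -0.13 and -0.21. With single libraries left out these ranged from -0.28 to -0.0075 and from -0.34 to -0.010. As a share of the YY1 total, XM_005695406.2 held 20.3%, 22.2% and 33.4% in pubertal and 15.4%, 17.2% and 20.5% in prepubertal replicates 1, 2 and 3 (exact two-sided permutation test, p = 0.2). The shares of the stages overlapped, and pubertal replicate 3 held the highest. The transcripts are close in length, and the division of fragments between them is an estimate of the authors' quantification.

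**Figure D4:**
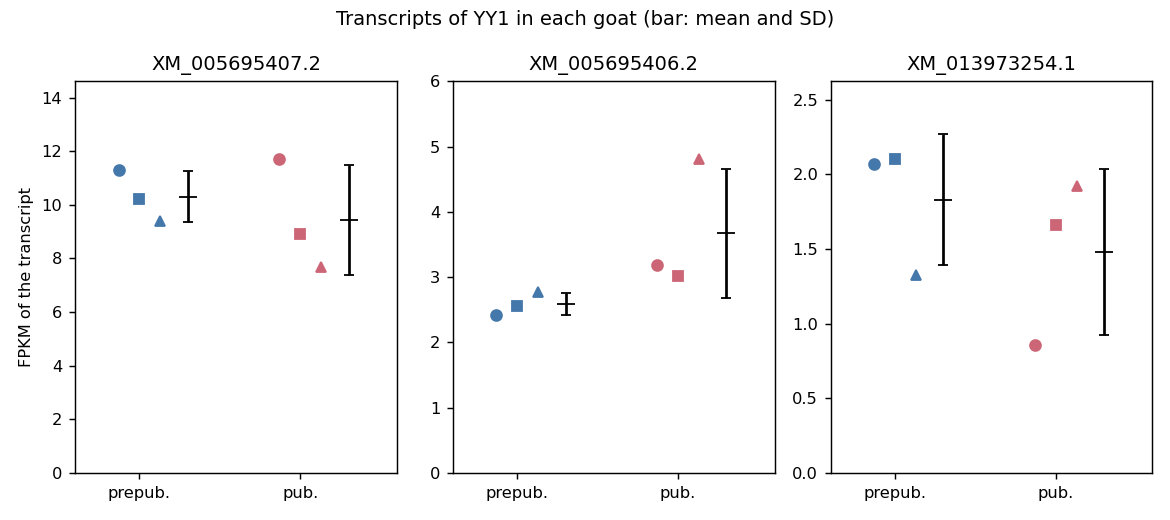
FPKM (vertical axes, each from 0) of the transcripts XM_005695407.2, XM_005695406.2 and XM_013973254.1 of YY1 in prepubertal (blue) and pubertal (red) goats, with the mean and SD as a black bar. The stages do not overlap for XM_005695406.2, where pubertal replicate 3 is highest at 4.80 FPKM.

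SIRT1 (XM_005699096.2, 3555 nt) measured 13.9, 12.3 and 12.1 FPKM in the pubertal against 12.9, 13.5 and 13.3 FPKM in the prepubertal goats. Pubertal replicate 1 was the highest of all and the other pubertal goats were the lowest. The means were 12.8 ± 1.001 and 13.2 ± 0.354 FPKM (SD, n = 3 each), a log2 difference of -0.05 (standard error 0.10, 95% interval -0.27 to 0.17, adjusted p = 0.978 from limma). As a fold of FPKM + 1 the interval was 0.828 to 1.13. SIRT2, a deacetylase abundant in oligodendrocytes, was 4.94 times and SIRT5, a mitochondrial enzyme, 1.89 times as abundant, each in 6 of 6 libraries. SIRT3, SIRT7, SIRT4 and SIRT6 were below SIRT1 in 6 of 6 libraries.

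In the list of sirtuins and the NAD pathway, 14 genes were tested, 9 were above 0, and none passed the unadjusted threshold. SIRT2 and NMNAT2, an enzyme of NAD synthesis in neurons, were the most abundant and had log2 differences of 0.13 and -0.06. In the list of Polycomb, trithorax and demethylase partners, 19 genes were tested, 8 were above 0, none passed the unadjusted threshold and the median was -0.01. EED, the Polycomb partner of SIRT1, was at 17.8 ± 2.57 and 17.9 ± 2.79 FPKM (SD, n = 3 each). HDAC2, a histone deacetylase, and RING1, a Polycomb ubiquitin ligase, were the most abundant of the list and had log2 differences of -0.13 and -0.03. KMT2A, KMT2C and KMT2D, trithorax methyltransferases that oppose Polycomb, had differences of 0.17, 0.18 and 0.18 with overlapping stages. Stages did not overlap in 1 gene of the list, HDAC1, against 9.75% of all genes. HDAC1 measured 28.6, 26.6 and 30.9 FPKM in the pubertal against 26.5, 24.9 and 24.4 FPKM in the prepubertal goats. Its log2 difference was 0.18 (adjusted p = 0.962 and unadjusted p = 0.0861 from limma).

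IRF2BPL (XM_013967339.1, 1782 nt) was the steadiest regulator. It measured 13.0, 14.8 and 14.5 FPKM in the pubertal against 13.7, 15.1 and 14.1 FPKM in the prepubertal goats, with overlapping stages. The means were 14.1 ± 0.938 and 14.3 ± 0.745 FPKM (SD, n = 3 each), a log2 difference of -0.02 (standard error 0.10, 95% interval -0.24 to 0.20, adjusted p = 0.993 from limma). Its coefficient of variation over the 6 goats was 5.41%, against a median of 10.1% in the 5657 genes with a mean within 2-fold, and only 9.19% of those genes varied less. SIRT1 was nearly as steady at 5.54%. The relatives of IRF2BPL were close by, IRF2BP2 at 2.07 times its level in 6 of 6 libraries and IRF2BP1 at 1.02 times, above it in 4 of 6. IRF2BP2 and IRF2BP1 had log2 differences of 0.01 and 0.02. Of the 5 genes tested in the list of IRF2BP and GATAD relatives, 4 were above 0 and none passed the unadjusted threshold. Stages did not overlap in 1, GATAD2B, against 9.75% of all genes. GATAD2B measured 13.6, 11.7 and 12.4 FPKM in the pubertal against 10.7, 10.9 and 11.4 FPKM in the prepubertal goats.

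The lncRNA locus XLOC_326023 is named as lying within 100 kb of IRF2BPL in the study's list of neighbouring genes, which was held here only in part. Its transcript TCONS_00639690 (1176 nt) measured 0.532, 1.35 and 0.617 FPKM in the pubertal against 0.890, 0.518 and 0.274 FPKM in the prepubertal goats. Pubertal replicate 2 was the highest and prepubertal replicate 3 the lowest, and the stages overlapped, as in all but 6.67% of lncRNA transcripts tested, with a log2 difference of 0.22 (standard error 0.25, 95% interval -0.39 to 0.84, adjusted p = 0.952 from limma over 2925 lncRNA transcripts).

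POU2F1 (XM_013975208.1, 2444 nt) measured 2.88, 4.08 and 3.35 FPKM in the pubertal against 3.39, 4.10 and 3.30 FPKM in the prepubertal goats. The stages overlapped, with the lowest value in pubertal replicate 1. The means were 3.44 ± 0.606 and 3.59 ± 0.438 FPKM (SD, n = 3 each), a log2 difference of -0.05 (standard error 0.14, 95% interval -0.38 to 0.27, adjusted p = 0.987 from limma). Among its relatives, POU2F2 is better known from lymphocytes, and POU2F1 stood on average at 9.29 times its level. POU3F3 and POU3F2, neural POU factors, were 3.09 and 1.77 times more abundant, each in 6 of 6 libraries, with log2 differences of -0.15 and -0.06. In the list of POU and NKX2 relatives, 6 genes were tested, 1 was above 0 and none passed the unadjusted threshold. NKX2-1 had no row in the mRNA table under the identifier or accessions that ARS1.2 gives it, and was not analysed here.

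A list of puberty genes placed downstream of these regulators was described last, and whether the regulators act on each gene was not tested. GNRH1, the gene of GnRH, measured 13.5, 14.1 and 16.0 FPKM in the pubertal against 6.92, 11.6 and 5.34 FPKM in the prepubertal goats, and the stages did not overlap (log2 difference 0.85, standard error 0.23, adjusted p = 0.779 and unadjusted p = 0.00577 from limma). KISS1, the kisspeptin gene, was at 2.01 ± 0.882 and 2.35 ± 0.355 FPKM, and TAC3, the neurokinin B gene, at 10.7 ± 2.03 and 11.2 ± 1.94 FPKM (SD, n = 3 each), both with overlapping stages. PDYN and PENK, opioid peptide genes and the most abundant of the list, had log2 differences of -0.02 and -0.19. PENK, which IRF2BPL and NKX2-1 are known to repress, was lower in all pubertal goats, by a narrow gap. It measured 62.39, 61.3 and 53.3 FPKM against 66.0, 62.58 and 73.0 FPKM (adjusted p = 0.962 and unadjusted p = 0.0958 from limma). Of the 9 genes tested, 2 were above 0, with a median of -0.07. The adjusted threshold was passed by 0 and the unadjusted one by 1, against 5.16% of all genes. Stages did not overlap in 2, GNRH1 and PENK, against 9.75% of all genes.

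Over all 8 partner lists, 83 of 95 genes were tested, and 0 had an adjusted p-value under 0.05 in limma. Unadjusted, 6 passed the threshold of 0.05, of which 3 were higher and 3 lower, or 7.23% against 5.16% of all genes. Stages that did not overlap were found in 11, or 13.3% against 9.75% of all genes. The count of 6 was 10 without pubertal replicate 1 (12.05% against 13.5% of all genes), 12 without pubertal replicate 2 (14.5% against 6.95%) and 3 without prepubertal replicate 1 (3.61% against 3.05%).

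**Figure D5:**
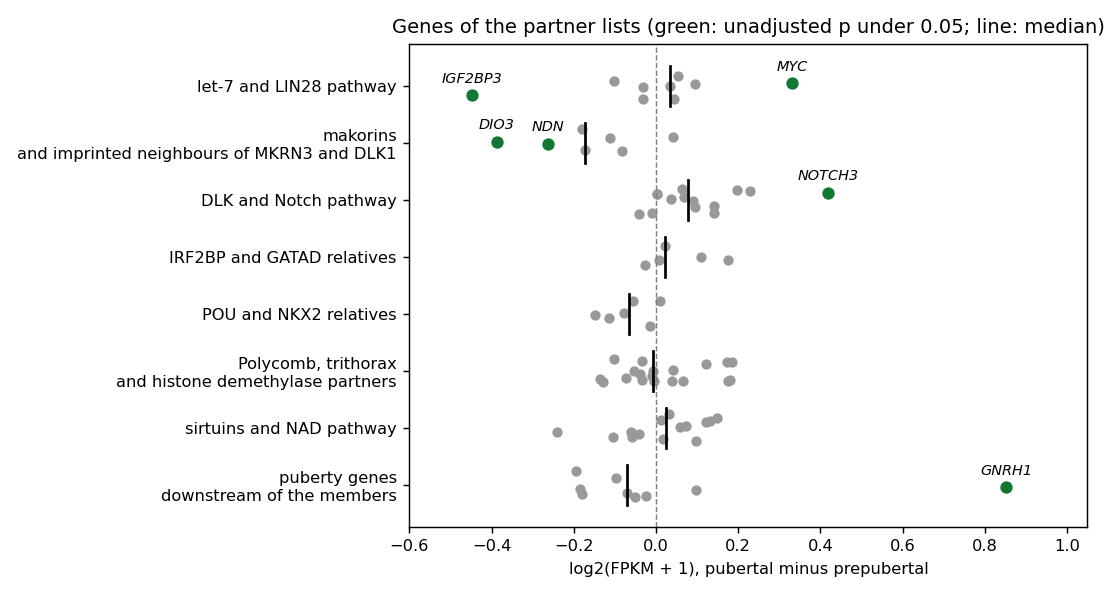
Difference in log2(FPKM + 1), pubertal minus prepubertal (horizontal axis), of the 83 tested genes of the 8 partner lists, 1 point per gene and 1 row per list, with a black line at the median. The 6 genes with an unadjusted p-value under 0.05 in limma are green and named, and GNRH1 lies farthest from 0 at 0.85.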

How the data were processed

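Hypothalamus RNA depleted of rRNA was sequenced by the authors as strand-specific, paired-end libraries. TopHat was their aligner, Scripture and Cufflinks 2.1.1 their assemblers, and the deposited values are FPKM per transcript and library. FPKM hold no counts, so depth was not compared between libraries and no counting error can be given. Their table of group values, fold changes, p-values and q-values was used for identifiers and lengths only. The genome build is not given in the sources used here. Symbols came from RefSeq ARS1.2 and matched 19121 of 20225 genes (94.5%).

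FPKM were summed by gene and tested with limma 3.58.1 in R 4.3.3 (lmFit, eBayes with a trend, two-sided, tested on simulated data) on log2(FPKM + 1), over genes with a mean of at least 0.1 FPKM, with Benjamini-Hochberg adjustment over all genes tested. Transcripts and lncRNAs were fitted likewise. Python 3.11.15 was used for the rest. The regulators and lists were chosen with earlier results of these data known. Genes named from a list were those with an unadjusted p-value under 0.05 and the 2 most abundant. MKRN1, MAGEL2, SNRPN, UBE3A, RTL1, KDM1A, EED, KMT2A, KMT2C, KMT2D, HDAC1, GATAD2B, HMGA2, DLK2, KISS1, TAC3, the other sirtuins, POU2F2, POU3F2, IRF2BP1 and genes of the marker lists were also named after values were seen where the rule did not name them. The alternatives were a pseudocount of 0.1, no minimum, a minimum of 1 FPKM, quantile normalization, centring on the median, no trend, the replicate number as a block, the most abundant transcript of a gene, and each library left out.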

Additional observations from a re-analysis of the deposited data

How the results depend on the processing

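No regulator passed the adjusted threshold under any of the 14 alternatives by gene, and the lowest adjusted p in limma was 0.585. With all 6 libraries every regulator kept the sign of its difference, and with single libraries left out 4 of 8 kept it. The sign changed for MKRN3 (range -0.0089 to 0.20), IRF2BPL (-0.055 to 0.030), POU2F1 (-0.16 to 0.038) and YY1 (-0.070 to 0.036). With single libraries left out, the number of regulators with an unadjusted p-value under 0.05 was 0 to 1, by gene and by transcript alike, the 1 being DLK1 without pubertal replicate 3, and that of the partner genes was 3 to 12. Over all genes tested the count with an unadjusted p-value under 0.05 went from 846 to 2220 without pubertal replicate 1 and to 500 without prepubertal replicate 1, and the count past the adjusted threshold was 0 to 4. The cause was not tested. No scaling moved the median of all genes by more than 0.02. Quantile normalization moved the log2 difference of MKRN3 from 0.09 to 0.02, of LIN28B from 0.17 to 0.09 and of POU2F1 from -0.05 to -0.14, and the most abundant transcript moved that of YY1 from -0.01 to -0.13. With the replicate number as a block, 0 regulators, 0 of their transcripts and 0 partner genes passed the adjusted threshold, 5 partner genes had an unadjusted p-value under 0.05, and XLOC_326023 had a log2 difference of 0.22, which a block cannot alter in this balanced design. With single libraries left out XLOC_326023 ranged from 0.03 without pubertal replicate 2 to 0.37 without prepubertal replicate 1, and with a pseudocount of 0.1 it was 0.51. The correlations of the deviations of same-numbered goats were -0.03, -0.11 and 0.09, within the range of the other pairs, -0.13 to 0.17. They were taken over many genes at once, and a pairing that touches few genes was not tested. Weakly expressed genes such as MKRN3 are limited by the pseudocount, and with 0.1 its difference was 0.14.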

Other observations

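The genes next to the regulators in the order of ARS1.2, up to 2 tested genes on each side, were described as well, a choice made after values were seen. Of 30 such neighbours, 0 had an adjusted p-value under 0.05 in limma and 1, NDN beside MKRN3, an unadjusted one. Over all genes tested, 5.16% had an unadjusted p-value under 0.05. The median log2 difference of the neighbours was -0.03. DLK1 and YY1 lie on the same chromosome with 5 protein-coding genes between them. BEGAIN and WDR25, on one side of DLK1, had log2 differences of 0.12 and -0.33 with overlapping stages.

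Of the 13 marker lists, the leptomeningeal list had summed levels of 101 to 258 FPKM in pubertal and 40.1 to 73.5 FPKM in prepubertal goats. Its median log2 difference was 1.24 over 5 genes, 3 of them with an unadjusted p-value under 0.05 in limma, against 5.16% of all genes. The stages did not overlap in the same 3, DCN, COL1A1 and COL1A2, against 9.75% of all genes. They overlapped in LUM and SLC6A13. The 258 FPKM belonged to pubertal replicate 3, and the other pubertal goats had 121 and 101 FPKM. None of the genes of any list passed the adjusted threshold. The median log2 difference was 0.42 for endothelial and mural cells, 0.29 for the pituitary, 0.20 for the choroid plexus, 0.12 for oligodendrocytes, 0.11 for astrocytes and tanycytes, 0.09 for blood, 0.07 for microglia and for the forebrain outside the hypothalamus, 0.00 for oligodendrocyte precursors and -0.04 for immature and dividing cells. It was -0.17 for neurons and -0.21 for the hypothalamus list, which holds SIM1 and OTP beside peptide genes. That last median covers AGRP at -2.15 and POMC at 1.83, each with an unadjusted p-value under 0.05 and adjusted p-values of 0.883 and 0.959 in limma.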
